A study of Mus musculus with 6 samples.

Results

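Vasoactive receptors and the genes that make or feed their ligands were examined in RNA-seq of brain mural cells and of brain microvascular fragments. The set holds 50 genes of the 33460 listed, chosen by name from the endothelin, vasopressin and oxytocin, adrenergic, muscarinic, serotonin, histamine, purine, prostanoid, peptide, protease and lysophospholipid systems. Of these, 45 encode receptors and 5 encode ligands or enzymes (*Edn1*, *Edn3*, *Ece1*, *Ptgs1* and *Ptgis*). All libraries came from mice at postnatal day 6 that carry both the *Pdgfrb-eGFP* transgene (line Tg(Pdgfrb-eGFP)JN169Gsat/Mmucd) and the *NG2-DsRed* transgene, in which the *Pdgfrb* and *NG2* promoters drive the reporters. One group comprised 3 libraries of FACS sorted cells positive for both reporters, a sort that takes pericytes (PC) and vascular smooth muscle cells (VSMC) together. VSMC with weak *NG2-DsRed* expression may be missing from it. The comparison group comprised 3 libraries of microvascular fragments, isolated with anti-CD31 beads from the remaining part of the same 3 brains and containing both endothelial cells (EC) and mural cells.

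Vessel tone is set by mediators released from nerves, EC, astrocytes and blood cells, which act on receptors of mural cells. Receptors coupled to Gq raise calcium and contract the cell, whereas those coupled to Gs raise cyclic AMP and relax it. Gi lowers cyclic AMP. EC release the constrictor endothelin and the dilator prostacyclin, so ligand and receptor are commonly found in neighbouring cell types.

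The comparison asks which of these genes are enriched in mural cells over whole fragments. Values are FPKM, sequenced fragments scaled to transcript length and library size, which allow levels of different genes to be compared per length. Fold enrichment is the ratio of mean FPKM. A gene was called higher or lower in mural cells at an adjusted p under 0.05 (limma on log2(FPKM + 1), Benjamini-Hochberg over 14801 genes) and a ratio above 2 or under 0.5. Of the 50 members, 33 had 3 or more libraries at FPKM 1 or above and were tested.

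The sorted cells carried mural markers and also signal of EC, fibroblasts and other cell types. All 12 mural markers examined were called higher in them, with ratios of 6.47 to 12.5. Of 12 EC markers, 2 were called lower and the other 10 were not called, and the median of the 12 was 67.4% of the fragment level. At an unadjusted p under 0.05, 9 of the 12 were lower. *Pecam1*, *Cdh5*, *Kdr*, *Tek* and *Ocln* had a limma adjusted p of 0.0096 to 0.024 and missed a call by the ratio alone (0.574 to 0.738). The summed FPKM of the 12 EC markers was 1546 to 2018 in mural cells against 2104 to 2443 in fragments. Of 8 microglia markers, all 8 were called lower, with a summed FPKM of 108 to 166 against 1564 to 1806. Of 5 fibroblast markers tested, 4 were called higher, with a sum over the 6 listed of 338 to 406 against 36.4 to 43.3. *Pdgfra* was not called (ratio 1.59). *Dpt* was below the filter, at 0.393 in mural cell library 1 and at 0 in all other libraries of both groups. The 8 astrocyte markers summed to 257, 212 and 750 in mural cell libraries 1, 2 and 3 and to 297 to 418 in fragments, and limma called 0 of them (1 lower at an unadjusted p under 0.05). Library 3 of the mural cells therefore stood apart in summed astrocyte signal. Of its 750, *Slc1a2* made up 236. All of these markers but *Gjb6* (2.43, 1.41 and 0 in mural cell libraries 1, 2 and 3) were highest among mural cells in library 3. Mural cell library 3 also had the highest sum of 6 markers of oligodendrocyte precursors (157 against 49.5 and 56.0 in the other mural cell libraries and 44.4 to 63.5 in fragments). Of that 157, *Ptprz1* made up 108. *Olig1*, *Olig2* and *Gpr17* were also highest in library 3. However, *Pdgfra* was level (11.9, 12.9 and 13.2 in mural cell libraries 1, 2 and 3) and *Sox10* was lowest in library 3 (1.09 against 3.13 and 2.87). By limma, 0 of the 6 precursor markers, 0 of 7 tested neuron markers and 0 of 3 tested erythroid markers were called, with 1 higher, 3 lower and 0 at an unadjusted p under 0.05. Of these, *Pdgfra* (ratio 1.59, limma adjusted p = 0.048) and the neuron marker *Stmn2* (ratio 0.511, adjusted p = 0.028) missed a call by the ratio alone. The neuron markers summed to 23.9 to 42.7 against 45.8 to 62.8, and the erythroid markers to 141 to 241 against 129 to 221. The depth behind the values was approximately 1.04 to 2.37 M fragments on protein-coding genes in mural cells, against 5.43 to 5.95 M in the microvascular libraries. For a transcript of 3000 bases, 1 fragment was worth an FPKM of 0.20, 0.48 and 0.45 in mural cell libraries 1, 2 and 3 and of 0.08 in each microvascular library. The limits given below for members at 0 in all mural cell libraries cover counting error only, whereas SE and SD describe the spread between libraries. In such bulk samples, fewer cells of a type and less RNA per cell cannot be told apart.

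Mural cells were enriched in receptors for endothelin, noradrenaline, thromboxane, adenosine, nucleotides, neuropeptide Y, parathyroid hormone and thrombin, and less firmly in a prostaglandin E, the prostacyclin and a serotonin receptor. Of the 33 members tested, 14 were called higher and 4 lower, where 6.43% and 10.1% of all genes tested were called. The 14 were *Ednra*, *Adra1b*, *Adra2a*, *Htr1b*, *Adora2a*, *Adora2b*, *P2rx1*, *P2ry14*, *Ptger3*, *Ptgir*, *Tbxa2r*, *Npy1r*, *Pth1r* and *F2r*, and all of them encode receptors. The 4 called lower were *Edn1*, *Ptgs1*, *P2rx4* and *Adrb1*. The groups did not overlap for any of the 18 called genes. Among all 33 tested members they did not overlap in 15 with mural cells higher and in 6 with mural cells lower, against 16.5% and 24.5% of all genes tested. Of the 14 genes, 10 passed the filter on low values in both groups, and 4 (*Adra1b*, *Htr1b*, *Ptger3* and *Ptgir*) passed it through the mural cell libraries alone, as *Adrb1* did through the fragments. For these the filter favours a difference, so that the counts over tested members are a description only. The median ratio of the tested members was 2.02, and that of all genes tested was 0.943. The median log2 ratio was 1.01, but it was -0.0073 over all members without the filter and 0.16 without mural cell library 1 (0.47 without library 2). With quantile normalization, which moved the median log2 fold change of all genes from -0.12 to 0.01, the higher share of all calls rose from 38.9% to 52.9%, and 14 members were called higher and 3 lower.

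**Figure D1:**
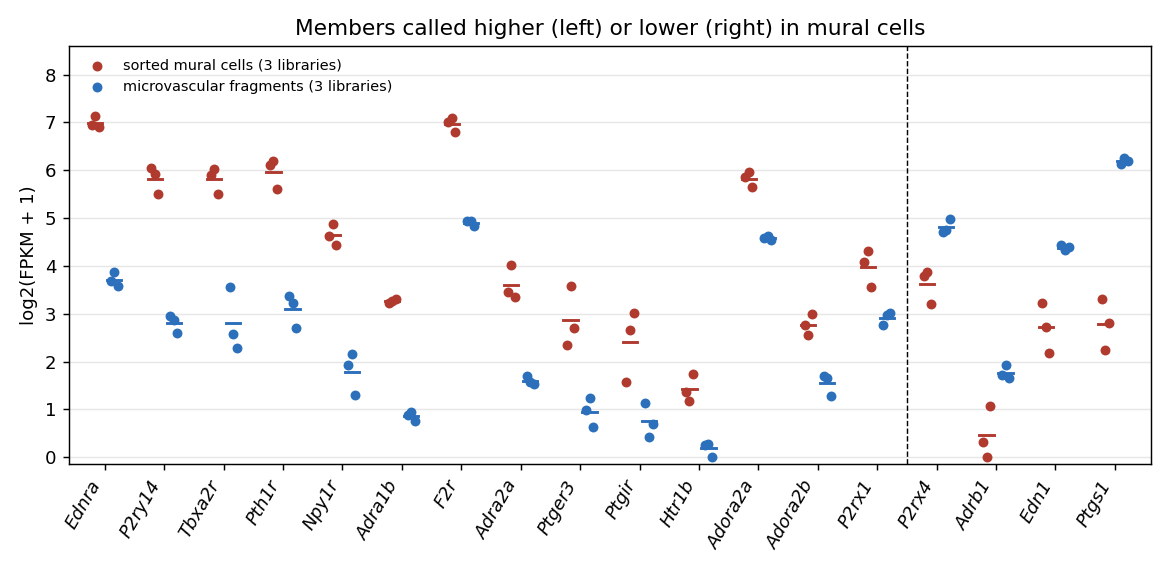
FPKM of the 18 called members in each library, as log2(FPKM + 1) on the vertical axis, with red points for the 3 mural cell libraries, blue points for the 3 microvascular libraries and bars for group means. The 14 genes left of the dashed line were called higher in mural cells and the 4 on the right lower, and the points of the groups do not overlap for any of them.

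The ratios of the 14 genes were set beside those of the marker genes. Within the range of the mural markers lay 9 of them, in order *Htr1b*, *Adra1b*, *Ednra*, *Npy1r*, *P2ry14*, *Tbxa2r*, *Pth1r*, *Ptger3* and *Ptgir*. On the log2(FPKM + 1) scale only 5 did, and *Adra1b*, *Ptger3*, *Ptgir* and *Htr1b*, which passed the filter through mural cells alone, lay below the range. The ratios of these 4 depend on the scaling, and were 25.9, 16.8, 15.8 and 38.8 with quantile normalization. Below the mural range lay *Adra2a*, *F2r*, *Adora2b*, *Adora2a* and *P2rx1*, with ratios of 5.62, 4.31, 3.02, 2.42 and 2.31. The 4 fibroblast markers called higher (*Lum*, *Dcn*, *Col1a2* and *Col1a1*) had ratios of 6.17, 7.33, 12.1 and 12.9. A place in the mural range therefore does not set mural cells apart from fibroblasts. The range of the EC markers was from 0.353 to 1.29. A higher call needs a ratio above 2, so no gene called higher could lie in that range. Among the 15 tested members that were not called, 9 lay in the EC range. The share of all tested genes in it was not computed, so this count is a description only.

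**Figure D2:**
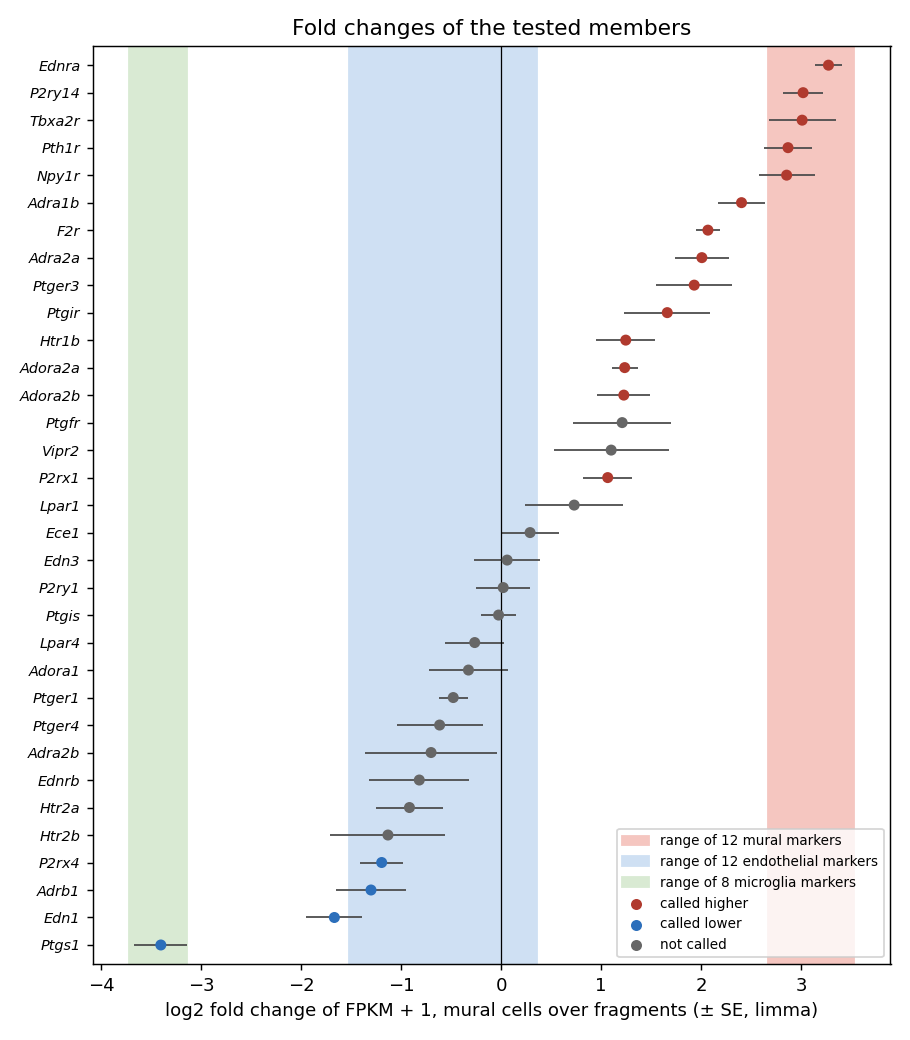
Log2 fold change of FPKM + 1 between mural cells and fragments (horizontal axis, limma estimate ± SE) for the 33 tested members, with shaded bands for the ranges of 12 mural, 12 EC and 8 microglia markers on the same scale. *Ednra*, *P2ry14*, *Tbxa2r*, *Pth1r* and *Npy1r* lie in the mural band and *Ptgs1* lies in the microglia band. Fibroblast markers have no band, and the 4 called higher were at 1.93 to 3.56 on this scale.

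Promoter sequences of the members were searched for 3 motifs. RefSeq promoters (GRCm38.p6, 250 bases before to 50 after a start) were found for 43 of the 50 members, with 61 start sites. A CArG box, the serum response element of smooth muscle genes, was found in 0 of the 61 and in 1.63% of all 32851 promoters. A cyclic AMP response element (TGACGTCA) was found in 0 of the 61 and in 1.79% of all promoters. The letters TATAAA, searched on both strands, were found in 4 of the 61 (*Adra2a*, *P2ry14*, *Avpr1a* and *Lpar4*) and in 13.6% of all promoters. Of the 14 genes called higher, 13 had a promoter, and 2 of their 20 start sites held these letters. A match is only a description of the letters. The median GC content was 61.0% for the member promoters and 52.7% for all. The promoter of *Ednra*, the gene with the largest log2 fold change, held none of the motifs. It is shown with those of *Adra2a* and *P2ry14*, the enriched receptors with a TATAAA match, whose letters are in capitals (TTTATA where the match is on the other strand). The match began 29 bases before the start of *Adra2a* and 118 bases before that start of *P2ry14*, 1 of 4 listed.
Ednra (chr8:77724403-77724702, minus strand): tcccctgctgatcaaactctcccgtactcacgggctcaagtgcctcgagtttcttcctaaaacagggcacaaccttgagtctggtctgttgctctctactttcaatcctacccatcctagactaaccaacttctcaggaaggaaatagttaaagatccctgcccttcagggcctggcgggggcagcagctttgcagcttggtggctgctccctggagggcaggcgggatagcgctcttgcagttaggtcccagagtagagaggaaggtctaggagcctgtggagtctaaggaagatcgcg
Adra2a (chr19:54045009-54045308, plus strand): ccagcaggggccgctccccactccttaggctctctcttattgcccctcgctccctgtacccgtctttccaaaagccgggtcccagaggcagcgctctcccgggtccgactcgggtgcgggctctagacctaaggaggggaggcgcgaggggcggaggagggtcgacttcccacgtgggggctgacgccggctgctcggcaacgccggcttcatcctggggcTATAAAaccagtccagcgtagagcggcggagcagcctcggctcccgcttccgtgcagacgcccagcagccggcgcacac
P2ry14 (chr3:59130713-59131012, minus strand): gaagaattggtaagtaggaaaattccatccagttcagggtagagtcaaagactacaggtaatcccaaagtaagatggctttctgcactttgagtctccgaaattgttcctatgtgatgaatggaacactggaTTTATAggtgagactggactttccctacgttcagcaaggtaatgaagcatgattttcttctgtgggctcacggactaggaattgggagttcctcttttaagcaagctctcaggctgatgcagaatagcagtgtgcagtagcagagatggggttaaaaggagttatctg

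In the endothelin system, the receptor *Ednra* was higher and the ligand *Edn1* lower in mural cells, whereas the receptor *Ednrb*, the ligand *Edn3* and the processing enzyme *Ece1* were not called. *Ednra* (ENSMUSG00000031616, chromosome 8 of NCBIM37, 80186930 to 80248363, minus strand) encodes the receptor through which endothelin contracts VSMC. Its FPKM was 122, 139 and 119 in mural cell libraries 1, 2 and 3 and 11.95, 13.7 and 10.9 in the microvascular libraries. The lowest mural cell library was thus far above the highest microvascular library. The mean was 10.4 times higher and the log2 fold change 3.27 (SE 0.13, limma adjusted p = 5.1e-05). Its mean of 126 ± 10.9 (SD, n = 3) in mural cells differed from those of *Ece1* (130 ± 54.2) and *F2r* (125 ± 12.8) by less than their SD, and these were the 3 highest means among the members.

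*Edn1*, which encodes the endothelin made chiefly by EC, had an FPKM of 8.42, 5.64 and 3.55 in mural cells and of 20.6, 19.2 and 19.9 in fragments (chromosome 13, 42396639 to 42403358). The gene has a single annotated transcript, and its values rest on 32, 9 and 6 fragments in mural cells and 174 to 202 in the microvascular libraries. The ratio was 0.295 and the log2 fold change -1.67 (SE 0.28, limma adjusted p = 0.0055). This ratio lay below those of all 12 EC markers, of which the lowest was 0.353.

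*Ednrb*, the second endothelin receptor, which EC and astrocytes also express, had an FPKM of 15.1, 9.50 and 43.5 in mural cells against 26.3, 32.6 and 43.9 in fragments. Mural cell library 3 alone reached the level of the fragments, and it is the library with the high astrocyte markers, whose part in the value was not tested. With all libraries the log2 fold change was -0.82 (SE 0.50, limma adjusted p = 0.29). Without mural cell library 3 it was -1.41 and *Ednrb* was called lower (adjusted p = 0.016). *Edn3* had an FPKM of 8.51 ± 1.95 and 8.46 ± 3.602 (SD, n = 3 each), and *Ece1* of 130 ± 54.2 and 102 ± 23.4. Both overlapped between the groups, and *Ece1* was highest in mural cell library 1, with 192 against 106 and 91.1 in libraries 2 and 3. The balance of *Ednra* over *Ednrb* within a library, as a difference in log2(FPKM + 1), was 2.93, 3.73 and 1.43 in mural cells against -1.07, -1.20 and -1.91 in fragments (exact permutation test, two-sided, p = 0.1, adjusted over 5 pairs 0.125). With 3 libraries against 3, 0.1 is the smallest p this test can give.

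**Figure D3:**
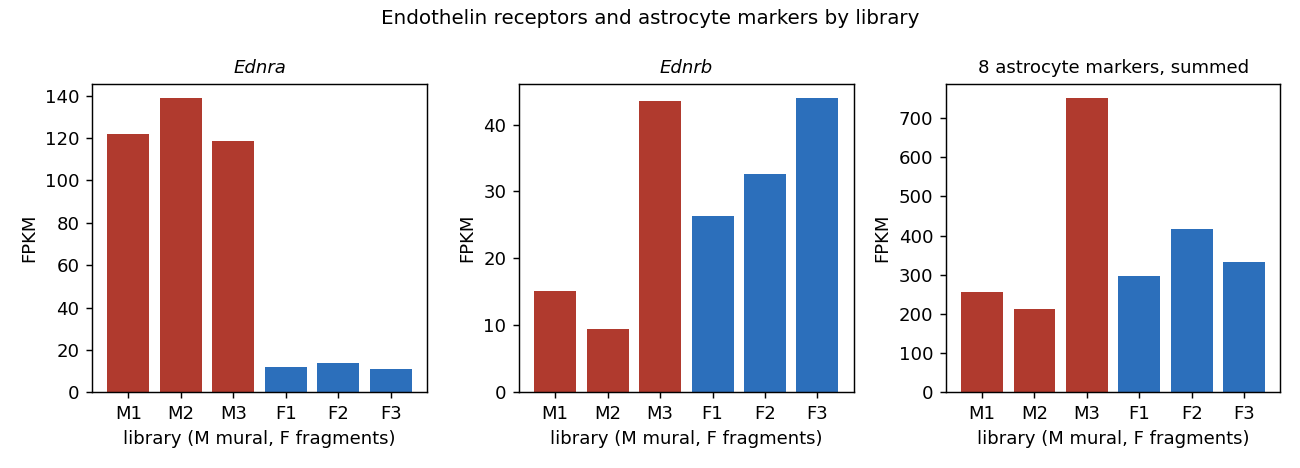
FPKM of *Ednra*, of *Ednrb* and of 8 astrocyte markers summed, in each mural cell library (M, red) and microvascular library (F, blue), with a separate vertical axis from 0 for each panel. *Ednra* is at 119 to 139 in all mural cell libraries, while *Ednrb* and the astrocyte markers are highest among mural cells in library 3, at 43.5 and 750.

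Among the adrenergic receptors, *Adra1b* and *Adra2a* were higher in mural cells and *Adrb1* was lower. *Adra1b* encodes a Gq-coupled receptor for noradrenaline (chromosome 11, 43588108 to 43714712). Its FPKM was 8.29, 8.57 and 8.89 in mural cells against 0.836, 0.922 and 0.685 in fragments, so that the mural cell libraries varied little around a level near that of *Edn3*. The ratio was 10.5 and the log2 fold change 2.40 (SE 0.24, limma adjusted p = 5.5e-04).

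*Adra2a*, which encodes a Gi-coupled receptor (chromosome 19, 54119672 to 54123472), had an FPKM of 10.01, 15.3 and 9.16 in mural cells against 2.25, 1.97 and 1.91 in fragments. Its values rest on 64, 41 and 26 fragments in mural cells and 30 to 37 in the microvascular libraries. The log2 fold change was 2.01 (SE 0.27, limma adjusted p = 0.00195). Every mural cell library was above every microvascular library for both receptors.

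*Adrb1*, the Gs-coupled receptor of cardiac muscle, had an FPKM of 0.246, 0 and 1.11 in mural cells against 2.29, 2.78 and 2.16 in fragments. These are low values, resting on 3 fragments in all mural cell libraries and 74 in the microvascular libraries. The log2 fold change was -1.30 (SE 0.35, limma adjusted p = 0.036), but the call was lost in 5 of the 6 fits that left out 1 library, all but the fit without mural cell library 3 (adjusted p up to 0.19), and with quantile normalization (0.17). *Adra2b* had an FPKM of 6.89 in microvascular library 1 and of 0.248 to 1.36 in all other libraries, and it was not called. *Adra1a*, *Adra1d* and *Adra2c* were below the filter.

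The serotonin receptors had low values in all libraries. *Htr1b*, a Gi-coupled receptor that constricts cerebral arteries and is a target of the triptans, had an FPKM of 1.58, 1.25 and 2.37 in mural cells against 0.203, 0.219 and 0 in fragments. It was called higher, with a ratio of 12.3 and a log2 difference of 1.25 (SE 0.30, limma adjusted p = 0.022). The values rest on 3, 1 and 2 fragments in mural cells and on 1, 1 and 0 in the microvascular libraries. Moreover, 66.9% of the exon bases are shared with *D430036J16Rik* on the opposite strand, whose reads cannot be told apart where strand was not used, and the call was lost without any one of the microvascular libraries (adjusted p up to 0.18). The enrichment of *Htr1b* was therefore weakly determined at this depth.

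*Htr2a*, the Gq-coupled serotonin receptor, had an FPKM of 0.814, 0 and 0.458 in mural cells against 2.13, 1.45 and 1.32 in fragments, without overlap but not past the threshold (adjusted p = 0.093). *Htr2b* had an FPKM of 2.39, 0 and 0 against 1.22, 1.98 and 4.39 (adjusted p = 0.21). Without mural cell library 1, *Htr2b* was at 0 in the remaining mural cell libraries and was called lower, with a log2 fold change of -1.72 (adjusted p = 0.036). *Htr1f* was listed at 0 in 5 of 6 libraries. The histamine receptors *Hrh1* and *Hrh2* and the muscarinic receptors *Chrm2* and *Chrm3* were below the filter, with no library above an FPKM of 1.97.

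Of the 8 purine receptors, 4 were called higher in mural cells and 1 lower. *P2ry14*, the Gi-coupled receptor for UDP-glucose and related sugars (chromosome 3, 58918548 to 58934546), had an FPKM of 65.6, 59.7 and 44.3 in mural cells against 6.79, 6.30 and 5.05 in fragments. It reached a ratio of 9.35 and a log2 difference of 3.02 (SE 0.20, limma adjusted p = 1.3e-04). It was the most enriched of the purine receptors by ratio.

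*Adora2a*, the Gs-coupled adenosine receptor that mediates vasodilation (chromosome 10, 74779688 to 74797533), had a similar level in mural cells, with 57.0, 61.0 and 48.9. In fragments, however, it was at 23.0, 23.6 and 22.4, so that the ratio was 2.42 and the log2 fold change 1.24 (SE 0.13, limma adjusted p = 7.2e-04). The values rest on 90 to 237 fragments per mural cell library and 233 to 245 per microvascular library, and the narrow spread in fragments (SD 0.61) makes this one of the better determined differences. *Adora2b*, the low affinity adenosine receptor, had an FPKM of 5.83, 4.90 and 6.95 in mural cells against 2.26, 2.15 and 1.44 in fragments (log2 fold change 1.23, SE 0.27, limma adjusted p = 0.016). *Adora1*, which is Gi-coupled and abundant in neurons, overlapped between the groups, with an FPKM of 1.42, 1.13 and 3.99 against 2.06, 3.44 and 2.73. Again mural cell library 3 was the highest.

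Of the ATP-gated channels, *P2rx1*, the channel of arterial smooth muscle, was higher and *P2rx4* was lower. *P2rx1* had an FPKM of 15.9, 18.8 and 10.9 in mural cells against 5.85, 6.89 and 7.05 in fragments (log2 fold change 1.07, SE 0.24, limma adjusted p = 0.019). The calls of *P2rx1* and *Adora2b* were lost without any one of the 3 microvascular libraries (adjusted p up to 0.080 and 0.085). *P2rx4*, which microglia and EC express, had an FPKM of 12.8, 13.6 and 8.28 in mural cells against 25.3, 25.97 and 30.6 in fragments (ratio 0.424, log2 fold change -1.19, SE 0.21, limma adjusted p = 0.0072). The microglia markers were at a median of 8.59% of the fragment level, and the part of microglia in the *P2rx4* difference was not tested. *P2ry1* had an FPKM of 1.23 ± 0.14 and 1.21 ± 0.30 (SD, n = 3 each) and was not called, and *P2ry2* was below the filter.

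In the prostanoid system, 3 of 7 receptors (6 tested) were called higher and the cyclooxygenase *Ptgs1* was lower in mural cells. *Ptgs1* (chromosome 2, 36085946 to 36107792), the constitutive enzyme that makes the precursor of all prostanoids, had an FPKM of 8.97, 3.75 and 5.98 in mural cells against 69.0, 75.6 and 71.9 in fragments. The level in fragments was 11.6 times that in mural cells, the largest decrease among the members (log2 fold change -3.40, SE 0.26, limma adjusted p = 2.3e-04). The ratio of 0.0864 lay within that of the 8 microglia markers, from 0.0708 to 0.110, whose part in the difference was not tested. *Ptgis*, the prostacyclin synthase, had an FPKM of 16.7 ± 2.29 in mural cells against 17.0 ± 1.69 in fragments (SD, n = 3 each), with overlapping libraries (log2 fold change -0.026, SE 0.17, adjusted p = 0.93).

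*Tbxa2r*, the Gq-coupled thromboxane receptor that contracts VSMC (chromosome 10, 80791477 to 80797916), had an FPKM of 58.5, 64.4 and 44.7 in mural cells against 10.8, 4.98 and 3.85 in fragments. It was the most abundant prostanoid receptor of the mural cells, with a ratio of 8.56 and a log2 difference of 3.01 (SE 0.34, limma adjusted p = 9.3e-04). Microvascular library 1 was above the other two. *Ptger3*, a Gi-coupled prostaglandin E receptor, had an FPKM of 4.09, 10.9 and 5.51 against 0.976, 1.35 and 0.542 (log2 fold change 1.93, SE 0.38, limma adjusted p = 0.011), and its call was lost without microvascular library 3 (adjusted p = 0.058).

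*Ptgir*, the Gs-coupled prostacyclin receptor, had an FPKM of 2.00, 5.33 and 7.04 in mural cells against 1.21, 0.343 and 0.623 in fragments (log2 fold change 1.66, SE 0.43, limma adjusted p = 0.031). Mural cell library 1 was the lowest of its group. The call was lost in 5 of 6 fits with 1 library left out, namely without any one of the microvascular libraries or without mural cell library 2 or 3 (adjusted p up to 0.13). *Ptgfr*, the prostaglandin F receptor, had an FPKM of 3.80, 7.01 and 2.85 against 0.173, 2.28 and 2.10, a ratio of 3.00 that did not pass the test (adjusted p = 0.12).

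*Ptger1* differed from the other prostanoid receptors of appreciable level. Its FPKM was 24.6, 19.96 and 22.5 in mural cells against 32.1, 33.9 and 28.6 in fragments, without overlap, but the ratio of 0.709 and the adjusted p of 0.053 did not pass. *Ptger4* overlapped between the groups, with an FPKM of 1.31 ± 0.95 and 2.46 ± 1.11 (SD, n = 3 each), and *Ptger2* was below the filter. The balance of *Ptger3* over *Ptger4* was 1.14 to 2.26 in mural cells against -1.50 to 0.08 in fragments, as a difference in log2(FPKM + 1) (exact permutation test, two-sided, p = 0.1, adjusted 0.125). *Ptger3* passed the filter through mural cells alone and *Ptger4* through the fragments alone. As the test can give no smaller p, this balance is a description only. Among the 5 pairs, *Adora2a* over *Adora1* (3.32 to 4.87 against 2.47 to 2.97) and *F2r* over *F2rl1* (6.23 to 7.10 against 3.54 to 3.95) also did not overlap. *Lpar1* over *Lpar4* overlapped (-0.26 to 2.13 against 0.03 to 0.65, exact permutation test, two-sided, p = 0.4).

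**Figure D4:**
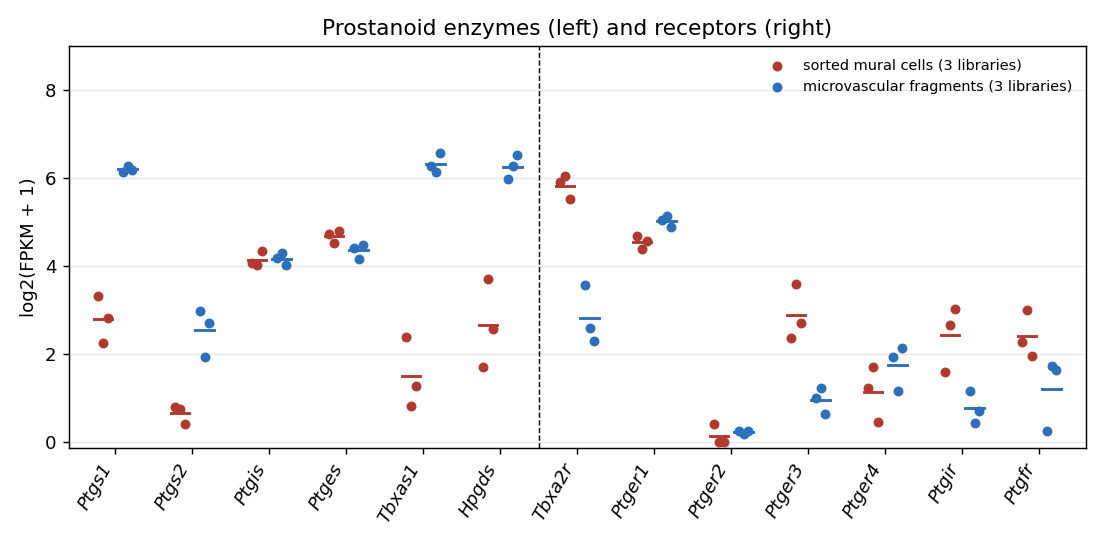
Prostanoid enzymes (left of the dashed line) and receptors (right) as log2(FPKM + 1) on the vertical axis, with red points for the 3 mural cell libraries, blue points for the 3 microvascular libraries and bars for group means. *Ptgs1*, *Ptgs2*, *Tbxas1* and *Hpgds* are lower and *Tbxa2r*, *Ptger3* and *Ptgir* higher in mural cells, while the points of *Ptgis* overlap.

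Of the 7 peptide receptors, *Npy1r* and *Pth1r* were called higher. *Npy1r*, the Gi-coupled receptor for neuropeptide Y, a constrictor released by sympathetic nerves (chromosome 8, 69221321 to 69230697), had an FPKM of 23.7, 28.2 and 20.8 in mural cells. In fragments it was 2.81, 3.45 and 1.45, which gave a ratio of 9.43 and a log2 difference of 2.85 (SE 0.28, limma adjusted p = 5.4e-04). The values rest on 118, 59 and 46 fragments in mural cells and 19 to 41 in the microvascular libraries.

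*Pth1r*, the receptor for parathyroid hormone and its related peptide, the latter a dilator made in vessel walls (chromosome 9, 110624592 to 110649649), had an FPKM of 68.0, 71.9 and 47.6 in mural cells against 9.31, 8.42 and 5.47 in fragments. Its mean in mural cells, 62.5 ± 13.02 (SD, n = 3), differed from that of *Adora2a* (55.7 ± 6.15), the next Gs-coupled receptor, by less than the SD, and in fragments *Adora2a* was higher (23.0 against 7.73). *Vipr2*, a receptor for vasoactive intestinal peptide, had an FPKM of 1.78, 3.94 and 12.1 against 1.58, 2.70 and 0.906. The highest value was that of mural cell library 3, the library with the high astrocyte markers, whose part in it was not tested. The ratio of 3.43 did not pass the test (adjusted p = 0.22), and it was 1.65 without that library.

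The bradykinin receptors *Bdkrb1* and *Bdkrb2* were listed at 0 in all mural cell libraries, and at 0.621 to 2.30 and 0.58 to 1.43 in fragments. They were below the filter. At the level of the fragments the mural cell libraries would have held 4.61 and 4.98 fragments in all, so that 0 fragments, with a limit of 3 over the group, allow up to 65.1% and 60.3% of that level. A lower level was thus not well determined at this depth.

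The thrombin receptor *F2r* (chromosome 13, 96371759 to 96388414) was among the most abundant members in both groups. Its FPKM was 128, 136 and 111 in mural cells against 29.6, 29.8 and 27.5 in fragments, where it was the highest of the receptors after *Ednrb* and *Ptger1*. The ratio was 4.31 and the log2 fold change 2.07 (SE 0.12, limma adjusted p = 9.5e-05). The values rest on 272 to 704 fragments per mural cell library. The related protease receptor *F2rl1* was listed at 0, 0 and 0.497 in mural cells and at 1.63, 1.48 and 0.841 in fragments, below the filter. Its values rest on 1 fragment in all mural cell libraries and 45 in the microvascular libraries, where an equal level would give 11.1.

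The lysophosphatidic acid receptors were not called. *Lpar1* had an FPKM of 5.18, 23.2 and 17.1 in mural cells against 9.22, 6.01 and 7.26 in fragments. Mural cell library 1 was below all fragments and libraries 2 and 3 were above them (adjusted p = 0.34). Without mural cell library 1, *Lpar1* was called higher, with a log2 fold change of 1.32 (adjusted p = 0.016). *Lpar4* had an FPKM of 4.85 ± 1.64 and 5.88 ± 1.07 (SD, n = 3 each), with overlap.

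In all, 17 members were below the filter and have no test. Their highest value in any library was 3.89, for *Vipr1* in microvascular library 1. In 3 of them (*Avpr1a*, *Oxtr* and *Adra1d*) every mural cell library was above every microvascular library. *Avpr1a*, the vasopressin receptor of smooth muscle, had an FPKM of 0.685, 1.63 and 1.54 against 0.266, 0.669 and 0.348, resting on 3 fragments in each mural cell library. *Oxtr*, the oxytocin receptor, had 0.516, 1.48 and 0.871 against 0.0502, 0.325 and 0. In 5 (*Hrh2*, *Vipr1*, *Bdkrb1*, *Bdkrb2* and *F2rl1*) every mural cell library was below. Of all genes tested, 16.5% and 24.5% did not overlap, but those genes passed the filter that these 17 members failed. The shares over genes below the filter were not computed, so the counts are a description only and show nothing particular to the members. In the other 9 (*Adra1a*, *Adra2c*, *Chrm2*, *Chrm3*, *Htr1f*, *Hrh1*, *P2ry2*, *Ptger2* and *Tacr1*) the groups overlapped. For *Hrh2*, which was at 0 in all mural cell libraries, an equal level would have given 5.58 fragments, and 0 fragments allow up to 53.8% of the level of fragments.

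Grouped by the G protein to which the receptors chiefly couple, all main classes contained enriched members. Of 10 tested Gq-coupled receptors 4 were called higher, as were 5 of 8 Gi-coupled and 4 of 7 Gs-coupled receptors, where 6.43% of all genes tested were. These counts include *Adra1b* (Gq), *Htr1b* and *Ptger3* (Gi) and *Ptgir* (Gs), which passed the filter through mural cells alone. *Adrb1* was the receptor of these classes that was called lower. The summed FPKM of the Gq-coupled receptors was 367, 391.5 and 362 in mural cells against 125, 130 and 130 in fragments. The sum of the Gi-coupled receptors was 113, 140 and 105 against 32.0, 23.9 and 21.6, and that of the Gs-coupled receptors was 137, 149 and 124 against 47.1, 42.8 and 38.3. Each class was led by a few genes, with *Ednra* at 33.8% of the Gq sum, *P2ry14* at 47.4% of the Gi sum and *Pth1r* at 45.7% of the Gs sum in mural cells.

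Other genes of the same systems were taken from lists. Of 29 tested receptors outside the set, 2 were called higher and 10 lower, where 6.43% and 10.1% of all genes tested were. *Cysltr2*, a receptor for cysteinyl leukotrienes, had an FPKM of 30.1 ± 17.7 in mural cells against 3.56 ± 0.64 in fragments (SD, n = 3 each, ratio 8.45, limma adjusted p = 0.0028), and *Sctr*, the secretin receptor, had a ratio of 4.15 at low values (adjusted p = 0.045) and passed the filter through mural cells alone. Among those called lower were *P2ry13* (ratio 0.0312) and *Ptafr* (0.0613). *P2ry13* and *Ptafr* are known from microglia, whose markers had ratios of 0.0708 to 0.110, and their part in these differences was not tested.

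Of 21 tested ligands and enzymes outside the set, 0 were called higher and 9 lower by limma, with 1 higher and 12 lower at an unadjusted p under 0.05. The lowest ratios were those of *Tbxas1*, the thromboxane synthase (0.0266), *Hpgd*, which degrades prostaglandins (0.0605), and *Hpgds*, a prostaglandin D synthase (0.0839). *Tbxas1* had an FPKM of 2.12 ± 1.83 in mural cells against 79.6 ± 12.4 in fragments (SD, n = 3 each). The ratios of *Tbxas1*, *Hpgd*, *Hpgds* and *Ptgs1* lay within or below the microglia marker range of 0.0708 to 0.110, and the part of microglia in these differences was not tested. The cyclooxygenase *Ptgs2* was also called lower, with an FPKM of 0.57 ± 0.22 against 5.07 ± 2.07 (SD, n = 3 each, ratio 0.113, limma adjusted p = 0.0082). It passed the filter through the fragments alone. *Ptges*, a prostaglandin E synthase, was not called, although every mural cell library was above every microvascular library (25.5, 21.9 and 26.9 against 20.2, 16.9 and 21.3, adjusted p = 0.18).

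Of 40 tested genes for G proteins, their effectors and receptor kinases, 5 were called higher and 6 lower, where 6.43% and 10.1% of all genes tested were. The 5 higher were *Pde3a*, a phosphodiesterase that degrades cyclic AMP (FPKM 112 ± 21.2 against 13.5 ± 1.88, SD, n = 3 each, ratio 8.28), the regulatory subunits *Prkar2b* (ratio 5.33) and *Prkar1a* (2.13) of protein kinase A, and the adenylyl cyclases *Adcy5* (5.26) and *Adcy6* (3.33). The lowest ratios were those of *Gna15* (0.03), *Adcy7* (0.101) and *Plcb2* (0.118), which blood cells and microglia express. The Gq subunits *Gnaq* and *Gna11* were not called, with ratios of 0.641 and 1.35.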

How the data were processed

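RNA-seq was performed on 3 libraries of sorted mural cells and 3 of microvascular fragments. The authors deposited 1 FPKM value per Ensembl gene and library. Their methods and processing notes name TopHat2 2.0.4 for the alignment to NCBIM37, Picard 1.92 for the removal of duplicates and Cufflinks 2.2.1 for the enrichment tests. Whether counting used strand, and how libraries were scaled, is not given in the sources used here. Of 9 identifiers listed repeatedly with identical values 1 line was kept. Symbols came from the GENCODE annotation of NCBIM37 and matched all 50 members. Log2(FPKM + 1) was fitted with limma 3.58.1 (R 4.3.3, intensity trend, Benjamini-Hochberg adjustment) over genes with 3 or more libraries at FPKM 1 or above. This replaces the Cufflinks test, since FPKM are not counts. The fit was tested on simulated data. Fragments behind a value were recovered for the 22 members with a single transcript, where 97.9 to 98.6% of low FPKM values lay within 0.03 of a whole number of fragments. Other steps were run in Python 3.11.15. Samples were grouped by their titles, whose replicate numbers recur in both groups. The methods take both groups from the same 3 brains, but the labels do not tie numbers to animals. Deviations of same-numbered samples correlated with r of 0.08, 0.02 and 0.05. Those of samples with different numbers correlated with r of -0.06 to 0.01, so a weak pairing by number is possible. As the labels do not give the pairing, the main fit has no replicate block, and a fit with the block is given among the alternatives. The members, lists and rule for named genes (all members, and the 3 highest and 3 lowest ratios among called genes of each other list) were chosen with earlier results of these data known. Results that need items withheld from this text are not reported here, so that 1 gene named by the rule is left out. The alternatives covered the pseudocount, scaling, block, trend, filters, thresholds, gene types and each sample left out in turn.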

Additional observations from a re-analysis of the deposited data

How the results depend on the processing

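Of the 14 members called higher, 9 were called under every alternative in which they were tested, as were 3 of the 4 called lower. No called member changed direction. The number called higher was 9 at an adjusted p under 0.01, and 9 to 13 when each sample was left out. The number called lower was 7 without the filter on low values, with *Bdkrb2*, *Hrh2* and *F2rl1* added, while 13 were then higher, with *Ptgir* lost (adjusted p = 0.057), and 3 to 5 with a sample left out. With the replicate block, which pairs same-numbered samples, 12 members were higher and 3 lower, with *Htr1b*, *Ptgir* and *Adrb1* lost. If equal numbers mark the same brain, this fit is the one that takes the pairing into account. *Adrb1* was also lost with a pseudocount of 0.1 and with quantile normalization. The median log2 ratio of the tested members was 1.01, and it was -0.0073 over all members without the filter and 0.16 to 1.26 with a sample left out, lowest without mural cell library 1. Among genes outside the set, the number of receptors called higher was 1 with the pseudocount of 0.1, the replicate block, no filter, a filter at FPKM 5, genes at 0 left out or an adjusted p under 0.01, 4 with quantile normalization and 1 to 2 with a sample left out, and 1 enzyme was higher with quantile normalization. The balance of *F2r* over *F2rl1* (3.07) was 5.02 and that of *Ptger3* over *Ptger4* (2.55) was 3.72 with a pseudocount of 0.1. Among members that were not called, the log2 fold change turned for *Edn3* (range -0.22 to 0.34) and *P2ry1* (-0.050 to 0.13) with a sample left out, for *Ece1* without mural cell library 1 (-0.029, range with a sample left out up to 0.50), for *Adora1* (0.078) with quantile normalization, and for *Ptgis* with median-ratio scaling (0.0057), quantile normalization (0.046) or a sample left out (-0.13 to 0.039). Where no value above shows it, the cause was not tested. The 1.04 to 2.37 M fragments of the mural cell libraries limit what can be said of members with an FPKM near 1.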
